A study of Mus musculus with 6 samples.

Results

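The stromal niche factors described here are 10 genes, namely the 7 retention and feeding factors Cxcl12, Kitl, Vcam1, Il7, Angpt1, Csf1 and Bmp4 and the 3 stromal receptors Lepr, Pdgfra and Pdgfrb. They were found on the array by the sequence record or gene number that the scanner files give for each probe, without any use of measured values. Each gene had 1 probe, so that 10 of 19801 probes and 10 of 13831 named genes are the subject of what follows. All 10 probes carry a current RefSeq mRNA record of their gene, and 9 of these genes have further RefSeq mRNA records (Vcam1 has 1), whose transcripts 1 probe cannot tell apart.

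Blood progenitors in the marrow are held and fed by a sparse network of perivascular stromal cells. These cells secrete the chemokine Cxcl12 and the stem cell factor Kitl, carry Vcam1 as an anchor for integrins, and are commonly recognised by the receptors Lepr, Pdgfra and Pdgfrb. Irradiation of the body damages this supporting network along with the blood cells.

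The arrays were CodeLink UniSet Mouse 20K I Bioarrays, on which labelled RNA of a sample binds to short probes and the brightness of each spot is read. RNA came from marrow of female mice aged 6 to 10 weeks in 3 groups of 2 arrays. The labels give the strain as C57BL/6J throughout, and the methods of the study name the recipients C57BL/6J-CD45.1 and the male donors C57BL/6J. The MSC group had received 9.5 Gy and 1000000 bulk mMSCs, a polyclonal culture from male marrow that had been expanded over many passages and marked with an eGFP retrovirus, and each array held the marrow of 3 mice. The HSC group had received 9.5 Gy and 1000000 marrow cells, with 2 mice per array, and the BM group was normal marrow of mice of the same age that had been neither irradiated nor transplanted, also with 2 mice per array. The cell dose is that of the methods, and the labels write it as 10E6. The methods place sampling at day 21, whereas the design text of the series says 7 months. The marrow had been flushed, and how much of the adherent stroma a flush recovers was not measured. Since each group had 2 pools, every p-value below weighs a difference between groups against the spread between pools, not between single mice. In limma that spread was shared over the 3 groups and drawn toward the spread of all tested probes.

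Between 11072 and 12510 probes per array were above background, most of them on MSC replicate 2 (12510) and BM replicate 1 (12324), and 209 to 558 spots per array were left out for defects. Values are log2 intensities after background correction and quantile normalization, and the lowest value above background lay between 7.30 and 7.52 on the 6 arrays. The general leukocyte gene Ptprc was above background on all 6 arrays, as were 7 of 19 measured stromal cell markers, while 17 of these 19 were above it on at least 1 array. In such bulk RNA, fewer stromal cells and less RNA per stromal cell cannot be told apart.

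Not all of the 10 factors were measurable in marrow. Kitl, Vcam1, Pdgfra and Pdgfrb were above background on all 6 arrays and Cxcl12 and Csf1 on 5, while Bmp4 and Lepr were above it on 1 array each and Il7 and Angpt1 on none. Among the factors above background, Cxcl12 and Vcam1 differed widely between the 2 pools of a group, and 0 of the 6 that could be tested passed the test between MSC, HSC and BM (limma, adjusted p 0.376 or more), where 0.480% of all tested probes passed between MSC and HSC, 0.430% between MSC and BM and 0.0359% between HSC and BM.

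**Figure D1:**
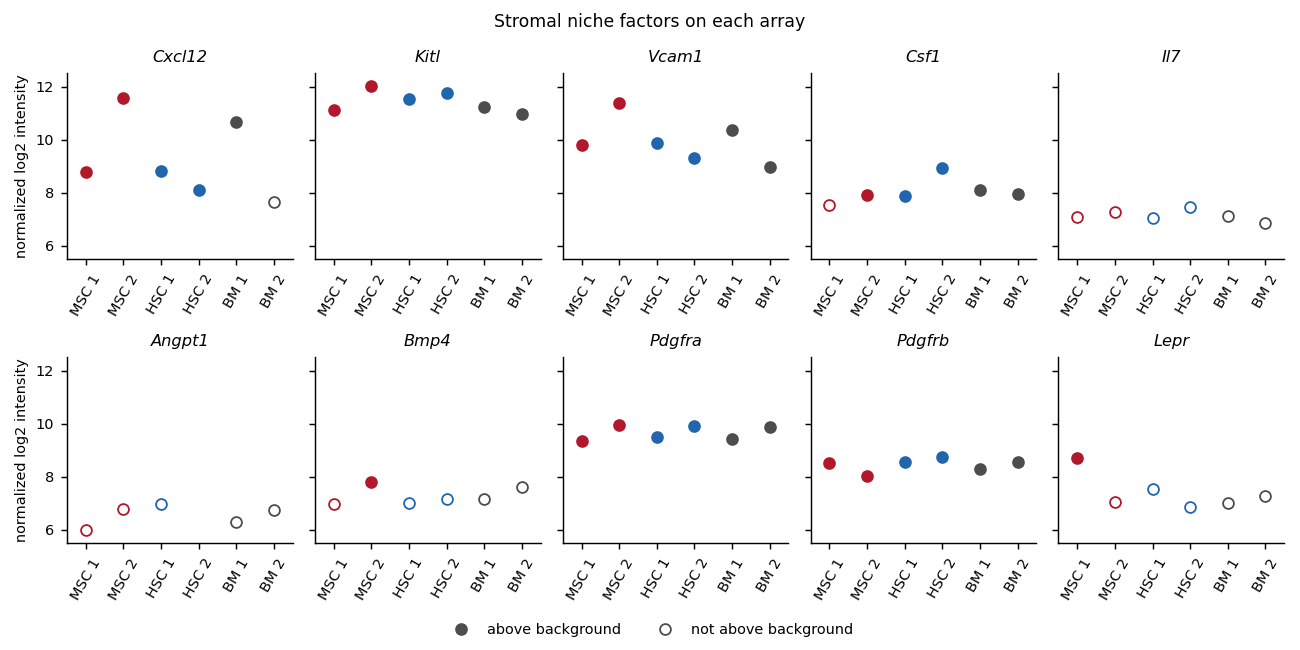
Normalized log2 intensity (vertical axis) of the 10 stromal niche factors on the 6 arrays (horizontal axis, 2 arrays each of MSC, HSC and BM), with filled points above background and open points not above it. Cxcl12 and Vcam1 were highest on MSC replicate 2 (11.56 and 11.39) and next highest on BM replicate 1 (10.67 and 10.37), and Angpt1 has no point for HSC replicate 2, whose spot was left out.

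Cxcl12, the chemokine that keeps blood progenitors in the marrow, had the widest range of the 10 genes. It stood at 8.80 and 11.56 in MSC recipients, against 8.80 and 8.10 in HSC recipients and 10.67 and 7.66 in unmanipulated BM, where the lower value was not above background. One array of the MSC group and one of the BM group were thus high, the other arrays were low, and all 3 groups overlapped. The 2 MSC arrays differed 6.79-fold and the 2 BM arrays 8.03-fold, against 1.63-fold between the HSC arrays. The range over the 6 arrays was 3.90 on the log2 scale, and the group means spanned 1.73.

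Group means of Cxcl12 were 10.18 ± 1.95 for MSC, 8.45 ± 0.50 for HSC and 9.17 ± 2.13 for BM (SD, n = 2 arrays each). The log2 fold change between MSC and HSC was 1.73 (SE 1.14, 95% confidence interval -0.98 to 4.43, adjusted p = 0.472 from limma). It was 0.35 without MSC replicate 2 and 3.11 without MSC replicate 1. Against BM the difference was 1.01 in the MSC group (SE 1.14, interval -1.70 to 3.72, adjusted p = 0.775) and it turned negative without MSC replicate 2 (-0.37) or without BM replicate 2 (-0.49). In the HSC group the difference to BM was -0.72 (SE 1.11, interval -3.33 to 1.89, adjusted p = 0.948), and it was 0.79 without BM replicate 1. The gap between the 2 pools of MSC or of BM was larger than any difference between group means.

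Vcam1, the adhesion molecule to which integrins of progenitors and B cell precursors bind, followed Cxcl12 array by array. Its log2 intensity was 9.79 and 11.39 in MSC recipients, against 9.87 and 9.32 in HSC recipients and 10.37 and 8.98 in BM. Again MSC replicate 2 and BM replicate 1 were the high arrays, BM replicate 2 was the lowest, and the groups overlapped. The means were 10.59 ± 1.13 for MSC, 9.59 ± 0.39 for HSC and 9.67 ± 0.98 for BM (SD, n = 2). The log2 fold change between MSC and HSC was 1.00 (SE 0.62, interval -0.48 to 2.47, adjusted p = 0.450), with 0.20 left without MSC replicate 2 and 1.79 without MSC replicate 1. Against BM it was 0.91 in the MSC group (SE 0.62, adjusted p = 0.610) and -0.08 in the HSC group (SE 0.61, adjusted p = 0.991). Without MSC replicate 2 the difference to BM was 0.11.

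The 6 arrays had the same order for Cxcl12 and Vcam1. Pearson's r was 0.971 and Spearman's rho 1 over the 6 arrays, and r was 0.997 over the 4 arrays left without MSC replicate 2 and BM replicate 1. This pair was singled out after the values were seen, among 15 pairs of the 6 tested factors, and the arrays of a pair share their hybridization and normalization. Pdgfrb ran the other way, with r = -0.935 against Cxcl12 and -0.919 against Vcam1 (rho -0.886 in both). Without the 2 arrays farthest from the median of Cxcl12 or of Vcam1, r was -0.377 against Cxcl12 and -0.986 against Vcam1. Over 7242 named probes above background on all 6 arrays, the pattern of Vcam1 was most like that of Gadd45b (r = 0.997), Cd200r1 (r = 0.988) and Snx5 (r = 0.986). For Cxcl12, searched after its values were seen, the closest were Rtn4 (r = 0.991), Elavl1 (r = 0.987) and Kcnk16 (r = 0.980). All of these were closer to Cxcl12 than Vcam1 was, and Kcnk16 ranged only from 12.60 to 12.79. Such genes are the highest of 7242 values of r over 6 arrays, picked for that, and a link to them was not tested. Gadd45b, a stress-responsive gene, stood at 9.32 and 10.43 in MSC recipients, 9.45 and 9.11 in HSC recipients and 9.79 and 8.94 in BM.

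Kitl encodes stem cell factor, the ligand of the receptor Kit on progenitors. It was above background on every array, at 11.13 and 12.01 in MSC recipients, against 11.54 and 11.75 in HSC recipients and 11.23 and 10.98 in BM. The whole range over the 6 arrays was 2.04-fold. Both HSC arrays were above both BM arrays, while the MSC arrays held the highest value of the 6 and one within the range of BM. The log2 fold change between HSC and BM was 0.54 (SE 0.31, interval -0.19 to 1.27, adjusted p = 0.897). It was 0.46 between MSC and BM (SE 0.32, adjusted p = 0.610) but 0.03 without MSC replicate 2, and -0.07 between MSC and HSC (SE 0.31, interval -0.82 to 0.67, adjusted p = 0.928).

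Csf1, the growth factor of monocytes and macrophages, was dim. It had log2 intensities of 7.53 and 7.90 in MSC recipients, of which the lower was not above background, against 7.88 and 8.92 in HSC recipients and 8.09 and 7.97 in BM. Both MSC arrays were below both BM arrays, by little, and HSC replicate 2 stood apart as the highest. Between MSC and HSC the log2 fold change was -0.68 (SE 0.36, interval -1.53 to 0.16, adjusted p = 0.376), and -0.16 without HSC replicate 2. Between MSC and BM it was -0.31 (SE 0.36, adjusted p = 0.779). Between HSC and BM it was 0.37 (SE 0.35, adjusted p = 0.900), and -0.15 without HSC replicate 2.

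The other feeding factors gave little or no signal. Il7, the cytokine on which early mouse B cells depend, was not above background on any array, with values of 7.07 and 7.27 in MSC recipients, 7.04 and 7.47 in HSC recipients and 7.11 and 6.84 in BM. Angpt1, the ligand of the receptor Tek on stem cells and endothelium, was not above it either, at 6.00 and 6.79 in MSC recipients, 6.98 in HSC recipients, where the spot of replicate 2 was left out, and 6.32 and 6.76 in BM. Bmp4, a bone morphogenetic protein, was above background on MSC replicate 2 alone (7.80), with 6.98 on MSC replicate 1, 7.03 and 7.18 in HSC recipients and 7.18 and 7.60 in BM. No fold change is given for these 3 genes, since at these intensities a difference was not detectable.

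The platelet-derived growth factor receptors mark mesenchymal cells of many tissues, Pdgfra many stromal progenitors and Pdgfrb pericytes as well. Pdgfra was at 9.35 and 9.94 in MSC recipients, 9.52 and 9.92 in HSC recipients and 9.41 and 9.87 in BM. Replicate 2 was the higher array in every group and the group means lay within 0.08 of each other on the log2 scale. The log2 fold change was -0.07 between MSC and HSC (interval -0.78 to 0.64, adjusted p = 0.929), 0.01 between MSC and BM (interval -0.70 to 0.72, adjusted p = 0.996) and 0.08 between HSC and BM (interval -0.62 to 0.77, adjusted p = 0.980). As a ratio of MSC over HSC the interval runs from 0.583 to 1.56.

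Pdgfrb was at 8.53 and 8.03 in MSC recipients, 8.56 and 8.75 in HSC recipients and 8.29 and 8.56 in BM. It was lowest on MSC replicate 2, the array on which Cxcl12 and Vcam1 were highest, and both MSC arrays were below both HSC arrays. The log2 fold change between MSC and HSC was -0.37 (SE 0.25, interval -0.96 to 0.21, adjusted p = 0.473), with -0.13 left without MSC replicate 2. It was -0.15 between MSC and BM (SE 0.25, adjusted p = 0.855) and 0.23 between HSC and BM (SE 0.25, adjusted p = 0.917).

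Lepr, the leptin receptor that marks most of the perivascular cells rich in Cxcl12 and Kitl, was above background on MSC replicate 1 alone. Its log2 intensity was 8.70 and 7.07 in MSC recipients, against 7.54 and 6.88 in HSC recipients and 7.01 and 7.27 in BM. On MSC replicate 1 the spot read 426.7 over a local background of 107, and on MSC replicate 2 it read 207.2 over 137. MSC replicate 2 lay below HSC replicate 1 and BM replicate 2, so that the groups overlapped. With 1 of the 6 arrays above background no fold change is given. Lepr was not tested, and its high array was not the one on which Cxcl12, Vcam1 and Kitl were high.

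Over the 3 comparisons, 6 of the 10 factors were bright enough to be tested (Cxcl12, Kitl, Vcam1, Csf1, Pdgfra and Pdgfrb), which required signal above background on both arrays of 1 group or more. Between MSC and HSC, 0 of 6 passed limma at an adjusted p under 0.05, where 0.480% of all tested probes did, and 0 had an unadjusted p under 0.05, where 16.9% did. Between MSC and BM, 0 of 6 passed, against 0.430% of all tested probes, and 0 had an unadjusted p under 0.05, against 12.4%. Between HSC and BM, 0 of 6 passed, against 0.0359%, and 0 had an unadjusted p under 0.05, against 5.37%. The methods' t-test called 0 of the 6 in any comparison, at an unadjusted p under 0.05 and after adjustment. An exact permutation test was not used, because 2 arrays against 2 cannot give a two-sided p below 0.333.

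**Figure D2:**
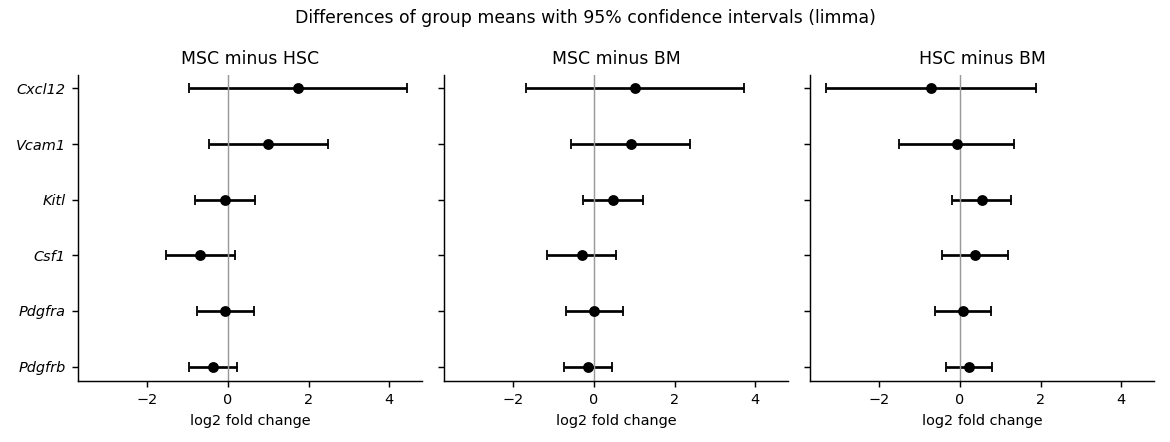
Log2 fold changes (horizontal axis) of the 6 tested factors in the comparisons MSC minus HSC, MSC minus BM and HSC minus BM. Points are differences of group means over 2 arrays each, bars are 95% confidence intervals from limma, and all 18 intervals include 0, with the widest for Cxcl12.

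By direction, 2 of the 6 factors had a log2 fold change above 0 between MSC and HSC, against 51.5% of all tested probes, with a median of -0.07 over the 6 and 0.02 over all 11660. Between MSC and BM 4 of 6 were above 0, against 51.1%, with medians of 0.24 over the 6 and 0.01 over all 11861. Between HSC and BM 4 of 6 were above 0, against 50.8%, with medians of 0.15 over the 6 and 0.01 over all 11153. The groups did not overlap for 1 of 6 factors between MSC and HSC, Pdgfrb, which was lower in MSC, where 26.5% of all probes lay lower and 24.8% higher without overlap. Between MSC and BM they did not overlap for Csf1, which was lower in MSC (21.9% of all probes lay lower and 20.5% higher). Between HSC and BM they did not overlap for Kitl, which was higher in HSC (20.4% of all probes lay higher and 16.2% lower). Read against these shares, 1 of 6 is no result about the factors. The comparisons share arrays, so that their values are not independent of each other.

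Several factors differed more between the pools of a group than most probes did. Among 12794 probes with signal in the MSC group, 0.461% differed between the 2 arrays at least as much as Cxcl12, 1.84% as much as Vcam1 and 1.74% as much as Lepr. In BM 0.613% of 12735 probes differed as much as Cxcl12 and 4.15% as much as Vcam1. In the HSC group 11.8% of 11725 probes differed as much as Cxcl12 and 20.1% as much as Vcam1, and Csf1 had the widest gap of the factors there (1.04 on the log2 scale, reached by 3.92% of probes). The median absolute difference between arrays of a group over all probes was 0.29 for MSC, 0.28 for HSC and 0.30 for BM.

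**Figure D3:**
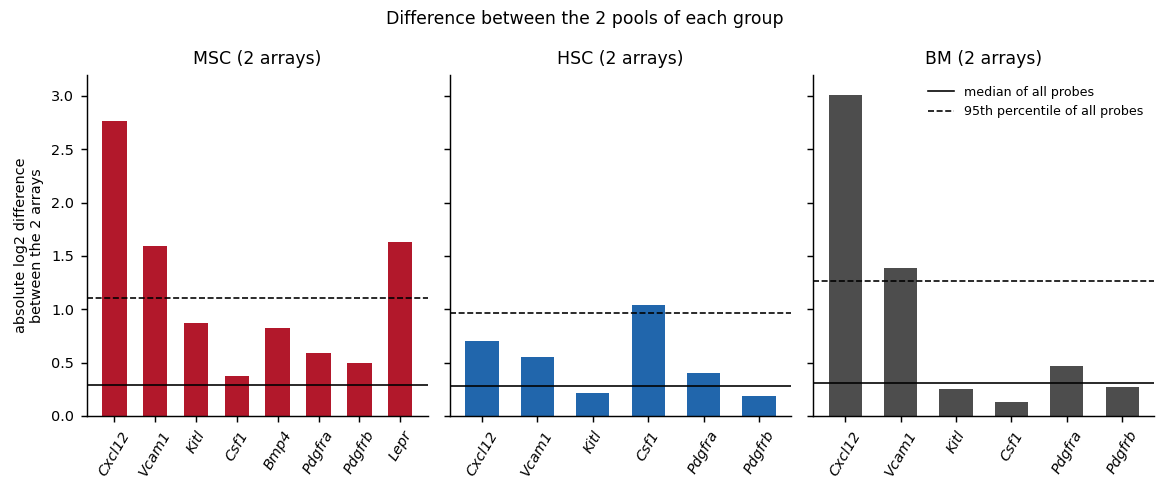
Absolute log2 difference between the 2 arrays of a group (vertical axis) for each factor above background on at least 1 of them, in the MSC, HSC and BM groups, with lines at the median (solid) and the 95th percentile (dashed) of all probes. Cxcl12 and Vcam1 exceed the 95th percentile in MSC and in BM, Lepr exceeds it in MSC and Csf1 in HSC, and Il7 and Angpt1 are not drawn.

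MSC replicate 2 also held the highest value of many genes of some other marrow cells, but not of others. It was the highest array for 4 of 5 retention and feeding factors with signal and for 1 of 3 receptors, Pdgfra, where over all probes with signal it was highest for 19.2%. All 8 macrophage markers with signal and a value on every array were highest there, 6 of them above background on all 6 arrays, and their summed intensity was 28610 and 77980 in MSC recipients, against 22400 and 25800 in HSC recipients and 21820 and 16960 in BM. Among macrophage markers Adgre1 and Maf were not above background on any array. All 4 adipocyte markers with a value on every array were highest on the same array as well, with sums of 16550 and 49670 in MSC recipients, 18390 and 23620 in HSC recipients and 16690 and 11450 in BM. Of 17 stromal cell markers 9 were highest there. Their sums were 17480 and 23440 in MSC recipients, 11860 and 15080 in HSC recipients and 10070 and 10360 in BM, with Ebf3 and Cdh2 not above background on any array. Of the endothelial markers 4 of 6 were highest on MSC replicate 2. In contrast, 0 of 7 neutrophil, 0 of 4 erythroid, 0 of 6 megakaryocyte and platelet and 0 of 6 B lineage markers were highest there. Neutrophil sums were 221000 and 180100 in MSC recipients, 217400 and 208100 in HSC recipients and 225100 and 218600 in BM. Of the blood cell identity genes, Ptprc, Spi1, Cd53 and Laptm5 were highest on a BM array, and Cd34, above background on 1 array, was highest on MSC replicate 2. Ptprc and Laptm5 were high on the same 2 arrays as Cxcl12 and Vcam1. Ptprc was at 10.35 and 11.11 in MSC recipients, 10.55 and 10.01 in HSC recipients and 11.50 and 10.23 in BM. Laptm5 was at 8.97 and 10.03 in MSC recipients, 8.98 and 8.61 in HSC recipients and 10.37 and 9.03 in BM. Spi1 and Cd53 did not share this order of arrays. Spi1 was at 13.6 and 13.76 in MSC recipients, 14.07 and 14.05 in HSC recipients and 13.9 and 14.2 in BM. Cd53 was at 11.71 and 12.67 in MSC recipients, 13.07 and 11.32 in HSC recipients and 13.1 and 11.6 in BM. The part of these cell types and of blood cells in the values of Cxcl12 and Vcam1 was not tested.

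**Figure D4:**
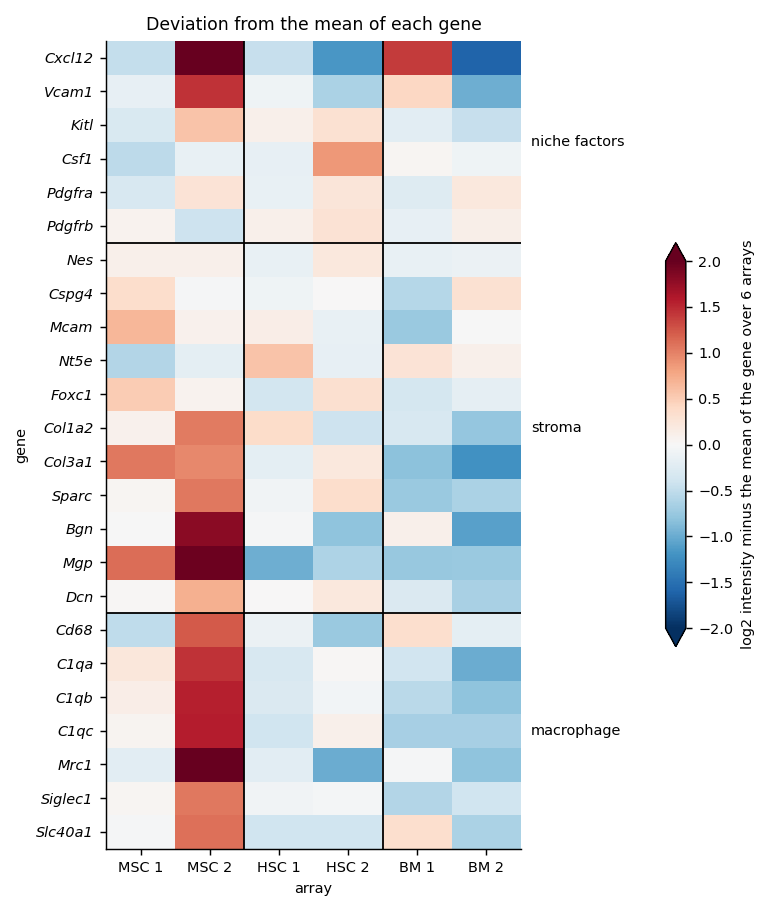
Log2 intensity minus the mean of the gene over the 6 arrays (colour, red above and blue below, saturated at 2) for the 6 tested factors and for stromal and macrophage markers above background on at least 4 arrays with a value on all 6, on the arrays of MSC, HSC and BM (horizontal axis). The 7 macrophage markers drawn are all highest on MSC replicate 2, as are Cxcl12, Vcam1, Kitl and Pdgfra, whereas Pdgfrb is lowest there.

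Among stromal cell markers 1 of 10 tested genes passed between MSC and HSC and 2 of 12 between MSC and BM, all higher in MSC. Mgp, which encodes matrix Gla protein, was at 11.29 and 12.14 in MSC recipients, 9.20 and 9.56 in HSC recipients and 9.42 and 9.44 in BM, with both MSC arrays above all others. Its log2 fold change was 2.33 against HSC (SE 0.31, adjusted p = 0.0436) and 2.28 against BM (SE 0.31, adjusted p = 0.0461). Col3a1, a fibrillar collagen, was at 10.54 and 10.44 in MSC recipients, 9.28 and 9.70 in HSC recipients and 8.66 and 8.27 in BM. Both HSC arrays were thus also above both BM arrays. Its log2 fold change was 2.02 between MSC and BM (SE 0.25, adjusted p = 0.0342 from limma). It was 1.00 between MSC and HSC (SE 0.25, adjusted p = 0.137) and 1.02 between HSC and BM (SE 0.24, adjusted p = 0.642), and these 2 did not pass. Both calls against BM were lost without MSC replicate 2 (adjusted p = 0.115 for Mgp and 0.125 for Col3a1) and without BM replicate 2 or either HSC array. The call of Mgp against HSC was lost without MSC replicate 2 (0.108) or either HSC array (0.172 and 0.114), that of Mgp against BM also without BM replicate 1 (0.0841) and that of Col3a1 also without MSC replicate 1 (0.0815). With the pool number as a block the adjusted p was 0.0864 for Mgp against HSC, 0.0804 for Mgp against BM and 0.111 for Col3a1 against BM. These 3 calls were also lost in the deposited values (0.074, 0.0812 and 0.0597), without the filter on dim probes (0.0888, 0.0923 and 0.0713) and in the methods' t-test after adjustment (0.439, 0.604 and 0.596). Those against BM were lost with only the 4 arrays compared (0.0900 and 0.0610), and both calls of Mgp with an offset of 16 (0.0538 against HSC and 0.0580 against BM). Whether the 10 factors differed in their change from these matrix genes was not tested.

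The receptors and ligands that pair with the factors were followed as well. Of 19 such genes 18 had a named probe, with the Cxcl12 receptor Cxcr4 not analysed here, and 14 were above background on at least 1 array. Between MSC and HSC 0 of 9 tested genes passed (median log2 fold change 0.45). Of these 9, 7 were above 0, against 51.5% of all tested probes. Between MSC and BM 0 of 10 passed (median 0.21) and between HSC and BM 0 of 8 (median -0.09). At an unadjusted p under 0.05 (limma) there were 2, 4 and 2 genes, against 16.9%, 12.4% and 5.37% of all tested probes. The largest difference between MSC and HSC was that of Il7r, the Il7 receptor chain of B cell precursors, at -1.37 (SE 0.47, adjusted p = 0.224). It stood at 8.44 and 9.81 in MSC recipients, 10.62 and 10.36 in HSC recipients and 10.66 and 9.88 in BM. The integrin Itgb1, a partner of Vcam1, had a log2 fold change of 0.57 (adjusted p = 0.329). For the shared cytokine receptor chain Il2rg it was 0.78 (adjusted p = 0.461), and -0.05 without MSC replicate 2, with 10.93 and 12.61 in MSC recipients and 11.06 and 10.91 in HSC recipients. For the Pdgfra ligand Pdgfc it was 0.64 (adjusted p = 0.558), and -0.20 without MSC replicate 2, with 9.80 and 11.48 in MSC recipients and 9.80 and 10.19 in HSC recipients. Both values above 0 against HSC thus came from 1 array. In BM Pdgfc was at 8.63 and 8.98, below every array of both groups of recipients. Of all probes 20.5% lay higher without overlap in MSC than in BM, and 20.4% in HSC than in BM. Its log2 fold change against BM was 1.83 in MSC (SE 0.51, adjusted p = 0.260 from limma) and 0.99 without MSC replicate 2. In HSC it was 1.19 (SE 0.50, adjusted p = 0.897). Among B lineage markers 5 of 8 tested genes passed limma as lower in MSC against HSC (Cd79b, Vpreb1, Vpreb3, Ms4a1 and Ebf1). Of all tested probes 0.480% passed in either direction. Of the 8 genes 0 had a log2 fold change above 0, and that of Cd79a was -0.02 (adjusted p = 0.976). The count of 5 became 6 with median scaling and 4 with the pool number as a block. It was 2 among probes above background on all 6 arrays and 0 in the methods' t-test after adjustment. Sums over 6 genes were 4337 and 5741 in MSC recipients, 23540 and 25210 in HSC recipients and 21230 and 20100 in BM. The part of B cell number in the level of Il7r was not tested.

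The receptors Kit and Csf1r, named here for their ligands and after their values were seen, did not pass in any comparison. Kit was at 9.54 and 8.90 in MSC recipients, 9.45 and 8.97 in HSC recipients and 10.56 and 9.69 in BM, so that both groups of recipients lay below BM with no overlap. Of all probes 21.9% lay lower without overlap in MSC than in BM, and 16.2% in HSC than in BM. The log2 fold change of Kit against BM was -0.91 in MSC (SE 0.37, adjusted p = 0.395 from limma). It was -0.92 in HSC (SE 0.37, adjusted p = 0.897). Csf1r was at 9.77 and 10.87 in MSC recipients, 10.64 and 9.24 in HSC recipients and 11.32 and 10.42 in BM, with the groups overlapping.

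Of 35 further niche factors 31 had a named probe and 25 were above background on at least 1 array. Between MSC and HSC 0 of 18 tested genes passed, with a median of 0.08. Of these 18, 12 were above 0, against 51.5% of all tested probes. Between MSC and BM 0 of 20 passed with a median of 0.12, and between HSC and BM 0 of 20 with a median of -0.02. At an unadjusted p under 0.05 (limma) there were 5, 5 and 0, against 16.9%, 12.4% and 5.37% of all tested probes. The largest differences between MSC and HSC were those of Spp1, which encodes osteopontin, at 1.93 (SE 0.55, adjusted p = 0.172), the BMP antagonist Grem1 at 1.11 (SE 0.41, adjusted p = 0.250), the monocyte chemokine Ccl2 at 1.08 (SE 0.36, adjusted p = 0.219) and Il15, a cytokine of natural killer cells, at -1.02 (SE 0.21, adjusted p = 0.107). Spp1 stood at 11.43 and 12.46 in MSC recipients, 10.37 and 9.68 in HSC recipients and 10.49 and 9.05 in BM.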

How the data were processed

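The authors deposited, per array, scanner intensities (the mean of each spot, the median of its local background and a quality mark, from CodeLink Expression Analysis 4.0.0.23520 per the file headers), and a table of log2 values. That log2 table had been quantile normalized by the authors after the sign of background-subtracted values was dropped, as its ranks show with 0 inversions. Here spot and background intensities were corrected with normexp (offset 50) and log2 values were quantile normalized, without control spots and defective spots, and a probe was above background when it carried no mark L. The offset shrinks fold changes of dim probes. Probes were named through RefSeq records, and the other sample columns in the files numbered 0.

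Comparisons were run in R 4.3.3 with limma 3.58.1 (two-sided, all 6 arrays, Benjamini-Hochberg adjustment over all probes tested in a comparison). Tables and figures used Python 3.11.15, pandas 2.3.3 and matplotlib 3.10.9, and limma was tested on simulated data. Alternatives covered background correction, normalization, offset, filter, variance model, arrays in the fit, pool number as a block, each array left out, and the methods' t-test. The number of arrays limits the precision.

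The factors and the 12 lists of other genes were chosen with earlier results of these data known. All 10 factors are named. Of each other list, genes past the threshold in any comparison were eligible to be named, otherwise the 2 to 4 with the largest difference between MSC and HSC. Lists of other cell types are given by counts, and some by sums, and the 3 genes most like the factor with the widest range among those above background on all 6 arrays are named. The genes most like Cxcl12 were added after its values were seen. The label protocol calls the arrays human, whereas the probes carry mouse records. No genome build was used, so no coordinates are given.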

Additional observations from a re-analysis of the deposited data

How the results depend on the processing

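The count of stromal niche factors past the threshold was 0 under all alternatives in each of the 3 comparisons. Of 330 alternative values of the 18 differences, 311 kept their direction and 19 reversed, and 0 crossed the threshold. Pdgfra between MSC and BM reversed with background-subtracted intensities and a floor (-0.13), median scaling (-0.0948), cyclic loess (-0.0131) and the deposited values (-0.000623), so that its direction depends on the scaling. With 1 array left out, values of log2 fold changes that changed sign ranged between MSC and HSC from -0.51 to 0.36 for Kitl and from -0.36 to 0.23 for Pdgfra. Between MSC and BM they ranged from -0.49 to 2.51 for Cxcl12, from -0.29 to 0.30 for Pdgfra and from -0.40 to 0.10 for Pdgfrb. Between HSC and BM they ranged from -2.22 to 0.79 for Cxcl12, from -0.77 to 0.61 for Vcam1, from -0.15 to 0.89 for Csf1 and from -0.16 to 0.31 for Pdgfra. The cause was not tested. Groups of 2 arrays limit all of these values, and Il7, Angpt1, Bmp4 and Lepr were too dim for a test.

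Whether arrays with the same pool number belong together cannot be told from 2 arrays per group. Deviations of arrays with the same number correlated at -0.199 between MSC and HSC, -0.278 between MSC and BM and 0.568 between HSC and BM over 8848 probes. With the pool number as a replicate block, 15 probes of the whole array passed between MSC and HSC, 22 between MSC and BM and 0 between HSC and BM, against 56, 51 and 4 without it, and 0 of the factors passed. With the MSC numbers crossed, an alternative chosen after seeing the data, 232 and 104 probes passed and 0 of the factors. Over the other limma alternatives the whole-array counts ran from 17 to 102 between MSC and HSC, from 22 to 90 between MSC and BM and from 0 to 10 between HSC and BM. They ran from 27 to 88, from 22 to 108 and from 0 to 70 with 1 array left out. The methods' t-test gave 0 in each after adjustment and 1226, 883 and 651 at an unadjusted p under 0.05. Background-subtracted intensities moved the median difference of all probes between MSC and HSC to -0.131.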

Other observations

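Dim factors read differently in the deposited log2 table, in which values below the local background appear as positive. For Angpt1 on MSC replicate 1 the spot read 143.4 and its background 149, and the authors' value was 3.39, where the background-corrected value was 6.00. Between the arrays of MSC and BM the authors' values of Angpt1 were 3.39 and 5.25 in MSC recipients and 3.75 and 5.10 in BM. For Lepr the deposited values were 8.46 and 6.03 in MSC recipients, 6.89 and 5.60 in HSC recipients and 5.92 and 6.41 in BM, so that MSC replicate 1 was the highest array for Lepr in both sets of values.

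The endothelial tight junction gene Cldn5, chosen after its values were seen, stood at 14.16 on MSC replicate 1 and at 8.65 on MSC replicate 2, with 7.92 and 7.66 in HSC recipients and 8.28 and 6.70 in BM, and had a log2 fold change of 3.62 between MSC and HSC (adjusted p = 0.306 from limma). Of the megakaryocyte and platelet markers Ppbp (log2 fold change -3.94, adjusted p = 0.00546) and Treml1 (-3.30, adjusted p = 0.00625) were lower in MSC than in BM, with adjusted p up to 0.0336 under the limma alternatives and 0.404 in the methods' t-test. Ppbp also passed between MSC and HSC (-1.57, adjusted p = 0.0493), and both passed between HSC and BM (-2.38 and -2.35, adjusted p = 0.0388 each). These 3 calls were lost with the pool number as a block (0.142 for Ppbp between MSC and HSC, 0.223 for both between HSC and BM), in the deposited values (0.0796 and 0.118), without the filter on dim probes (0.128 and 0.0992), with only the 4 arrays compared (0.0589 and 0.0909), with an offset of 16, in the methods' t-test after adjustment (0.421 and 0.759) and without some single arrays. Among osteoblast markers 0 of 3 tested genes passed limma in any comparison, with 0, 0 and 2 at an unadjusted p under 0.05 between MSC and HSC, MSC and BM, and HSC and BM. The shares of all tested probes at that limit were 16.9%, 12.4% and 5.37%. Bglap, which encodes osteocalcin, was at 8.64 and 10.30 in MSC recipients, 9.55 and 10.28 in HSC recipients and 8.09 and 8.50 in BM, with both groups of recipients above BM on every array. Of all probes 20.5% lay higher without overlap in MSC than in BM, and 20.4% in HSC than in BM. Its adjusted p against BM was 0.440 in MSC and 0.894 in HSC (limma). Alpl also lay above BM in both groups. Sp7 lay above BM (8.15 and 8.76) in HSC recipients (8.825 and 8.863), while in MSC recipients (8.56 and 8.53) it lay within the range of BM.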
